A study of Mus musculus with 8 samples.

Results

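The genes described here lie on mouse chromosome 12 around Ahr, the gene that was deleted in the knockout mice of this study. Ahr encodes the aryl hydrocarbon receptor, a transcription factor that binds dioxins and related ligands. With its partner ARNT, the receptor binds DNA in the nucleus at sites with a GCGTG core. A list of 57 neighbours was set beside it. For each neighbour, the probe set (a group of short array probes for 1 transcript region) with the highest mean over the arrays was taken among those annotated to that gene alone. By this rule 42 of the 57 were measured, out of 12393 genes measured in all, and these 42 carried 86 of the 22626 probe sets tested. The other 15 were Rock2, Nol10, Klf11, Asap2, Kidins220, Nbas, Dus4l, Cog5, Prkar2b, Immp2l, Dock4, Arl4a, Etv1, Snx13 and Baz1a. Etv1 had only probe sets that the annotation shares with another symbol, and the other 14 are not analysed here.

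Genes beside a targeted locus are a known point of care in knockout mice. A targeted allele is made in embryonic stem cells, and backcrossing to another strain replaces the donor genome everywhere except in a stretch around the selected allele, so that flanking genes can keep donor alleles. The question put to the data was whether the neighbours of Ahr differed between knockout and wild type more than genes elsewhere did.

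The arrays carried RNA of CD4 T cells sorted from the spleen, taken from female mice 8 to 12 weeks old. These were Ahr knockouts backcrossed to C57BL/6 (KO) or wild-type C57BL/6 (WT), and had received 10 µg/kg TCDD (a dioxin and potent ligand of the receptor) or DMSO, both in corn oil and intraperitoneally, 24 h earlier. There were 4 groups (KO TCDD, KO DMSO, WT TCDD, WT DMSO) with 2 arrays each, described as biological duplicates, and each array held RNA pooled from 4 animals. The stem cell strain, the number of backcross generations and the alleles carried at the flanking genes are not stated in the sources used here, and donor and C57BL/6 alleles at these genes cannot be told apart. All values below are log2 expression values from RMA (robust multi-array averaging), and differences are KO minus WT in log2 units.

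The targeted gene did not read lower in KO. One Ahr probe set read 6.49 and 6.79 in KO TCDD, 7.08 and 6.60 in KO DMSO, 6.29 and 6.14 in WT TCDD, and 6.29 and 6.11 in WT DMSO. All KO arrays lay above all WT arrays on it, by 0.53 on average, which did not pass (limma, BH adjusted p = 0.0658; BH is the Benjamini-Hochberg adjustment over 22626 probe sets). The other Ahr probe set differed by 0.04 (limma, BH adjusted p = 0.906). How the probes lie against the deletion is not stated in the sources used here, and these readings do not check the labels. For the array WT TCDD replicate 1, the description speaks of knockout mice although title, source and strain all say wild type, and it was kept as WT. Markers of the sorted cells (7 of 8 listed CD4 T cell genes were measured, all above the array median on at least 1 array) were not called in either direction. The WT arrays numbered 2 stood apart from the other 6 on the first principal component, which held 52.1% of the variance, at 40.4 (TCDD) and 49.2 (DMSO). The WT arrays numbered 1 lay at −2.04 (TCDD) and 9.10 (DMSO). All KO arrays lay below the WT arrays on it, from −36.2 to −5.20.

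Most neighbours read somewhat lower in KO than in WT, but few differences passed. Of the 42 measured neighbours, 28 had a negative and 14 a positive difference, with a median of −0.16, against a median of 0.01 over all other measured genes, of which 49.2% were negative. The median size of the difference, regardless of sign, was 0.30 for the neighbours and 0.14 for the other genes. With an adjusted p under 0.05 as the call, 3 neighbours were called (limma, BH): Snx6 and Lpin1 fell and Pik3cg rose. That is 7.14% of the neighbours, beside 2.79% of all probe sets called (631 of 22626; 1.59% higher and 1.2% lower in KO). For 12 neighbours, or 28.6%, the 4 KO arrays all lay on 1 side of the 4 WT arrays, 10 of them lower and 2 higher in KO, where 12.3% of all probe sets did so (5.67% above and 6.67% below). At an unadjusted p under 0.05, limma counted 17 neighbours (40.5%), beside 20.5% of all probe sets.

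**Figure D1:**
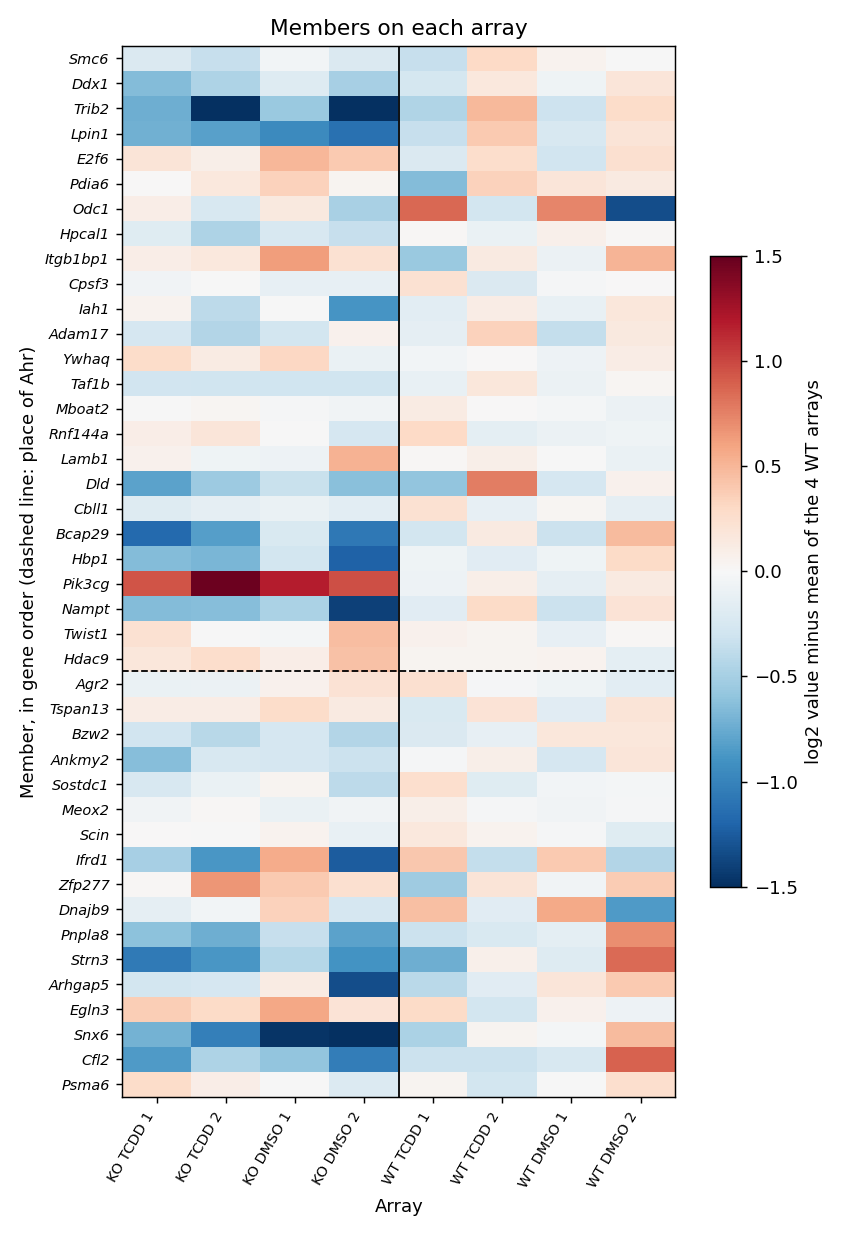
Each row is 1 of the 42 measured neighbours in gene order, with the place of Ahr as a dashed line, and each column is 1 array, KO left of the black line and WT right of it. Colour is the log2 value minus the mean of that gene's 4 WT arrays; Pik3cg stands out as higher on all KO arrays, and Trib2, Lpin1, Nampt and Snx6 as lower.

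The shares were also taken by brightness. The neighbours read between 3.96 and 10.59 on average over the 8 arrays, and 32 of the 42 lay at or above the median probe set level of 6.13. Among those 32, the groups were apart for 10 (31.2%) and 3 were called (9.38%). Among the other measured genes at or above that level, the groups were apart for 17.1% and 5.03% were called. Among the 10 dim neighbours the groups were apart for Taf1b and Hdac9 (20%). Of these 10, 0 were called at an adjusted p under 0.05 (limma, BH; 2 at an unadjusted p under 0.05, or 20%). Among the other measured genes under that level, 6.83% were apart, 0.542% were called and 9.16% had an unadjusted p under 0.05 (limma).

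Pik3cg encodes the catalytic subunit of phosphoinositide 3-kinase gamma, a kinase that leukocytes use downstream of G protein-coupled receptors such as those for chemokines. Its brightest probe set read 7.02 and 7.55 in KO TCDD, 7.25 and 7.05 in KO DMSO, 6.00 and 6.16 in WT TCDD, and 5.94 and 6.21 in WT DMSO. Every KO array was thus above every WT array, and the WT array with the conflicting description, at 6.00, sat among the other WT arrays. The level rose by 1.14 (SE 0.13) in KO (limma, BH adjusted p = 0.00788), and the exact permutation test, two-sided, gave p = 0.0286, the lowest value possible with 70 arrangements of 4 against 4 arrays. The call was lost without both WT arrays numbered 2, where the difference was 1.25 (limma, BH adjusted p = 0.0595). Its second probe set went the opposite way. It read 5.10 and 5.24 in KO TCDD, 5.31 and 4.95 in KO DMSO, 6.09 and 5.91 in WT TCDD, and 5.71 and 6.40 in WT DMSO, again without overlap, and fell by 0.88 (SE 0.15; limma, BH adjusted p = 0.03). The mean of both probe sets differed by 0.13 (limma, BH adjusted p = 0.601), so the array gives no single direction for this gene. What sets the probe sets apart was not tested.

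Pik3cg is also expressed in myeloid cells. Of 10 measured myeloid and dendritic cell markers, 7 rose in KO (C1qb, Cd68, Csf1r, Fcer1g, Irf8, Mpeg1 and Tyrobp) and 0 fell. Of all probe sets, 1.59% were called higher and 1.2% lower. The summed linear signal of the 10 markers ran from 3792 to 5924 on the KO arrays and from 1295 to 1483 on the WT arrays, and Itgam lay under the median probe set level on all 8 arrays. Of 5 B cell, 2 erythroid and 4 platelet markers measured, 0 were called in either direction (limma, BH). Of 6 CD8 T and NK cell markers, Nkg7, a granule protein of cytotoxic lymphocytes, rose in KO (8.12 ± 0.46 in KO, against 6.75 ± 0.18 in WT, SD over 4 arrays each; limma, BH adjusted p = 0.0214), and 0 fell. The summed linear signal of that list ran from 877 to 1280 on the KO arrays and from 620 to 826 on the WT arrays, with Cd8a, Cd8b1 and Ncr1 under the median probe set level on all 8. The part of these cells in the Pik3cg values was not tested. In bulk RNA, a changed number of cells of a type and a changed amount of RNA per cell cannot be told apart.

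Snx6 encodes sorting nexin 6, which works with the retromer complex in the return of membrane proteins from endosomes. It read 8.63 and 8.31 in KO TCDD, 7.87 and 7.85 in KO DMSO, 8.86 and 9.38 in WT TCDD, and 9.31 and 9.81 in WT DMSO. All KO arrays lay below all WT arrays, with the KO DMSO pair lowest and WT DMSO replicate 2 highest. Snx6 fell by 1.18 on the log2 scale (SE 0.23; limma, BH adjusted p = 0.0409; by exact permutation, two-sided, p = 0.0286). Of its 2 further probe sets, 1 differed by −0.65 (limma, BH adjusted p = 0.158) and the other by −0.06 (limma, BH adjusted p = 0.935). The Snx6 call held when WT TCDD replicate 1 was left out and was lost when any other array was left out, with a difference between −1.33 and −1.02 over the 8 arrays left out in turn. Without both WT arrays numbered 2 it differed by −0.92 (limma, BH adjusted p = 0.195).

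Lpin1 encodes lipin 1, a phosphatidic acid phosphatase of glycerolipid synthesis that also acts as a transcriptional coactivator. It read 6.62 and 6.53 in KO TCDD, 6.38 and 6.22 in KO DMSO, 7.00 and 7.73 in WT TCDD, and 7.10 and 7.53 in WT DMSO. The groups did not overlap, and the WT arrays numbered 2 were the highest. Lpin1 fell by 0.90 (SE 0.17; limma, BH adjusted p = 0.0381; by exact permutation, two-sided, p = 0.0286), and its other probe set differed by −0.50 (limma, BH adjusted p = 0.262). The Lpin1 call held when WT TCDD replicate 1 or WT DMSO replicate 1 was left out. It was lost when any other single array was left out and, with a difference of −0.61, when both WT arrays numbered 2 were (limma, BH adjusted p = 0.136).

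Promoters of these 3 called genes, and of Pnpla8, are shown because the deleted protein is a DNA-binding factor whose core site can be looked for in them. They come from RefSeq on GRCm38.p6, run from 250 bases before to 50 after the transcription start, and are written 5′ to 3′ on the gene's strand. Capitals mark GCGTG or its reverse complement CACGC. Pik3cg is chr12:32208610-32208909, Snx6 is chr12:54795613-54795912 and Lpin1 is chr12:16610917-16611216, all on the minus strand, and Pnpla8 is chr12:44268904-44269203 on the plus strand.
Pik3cg: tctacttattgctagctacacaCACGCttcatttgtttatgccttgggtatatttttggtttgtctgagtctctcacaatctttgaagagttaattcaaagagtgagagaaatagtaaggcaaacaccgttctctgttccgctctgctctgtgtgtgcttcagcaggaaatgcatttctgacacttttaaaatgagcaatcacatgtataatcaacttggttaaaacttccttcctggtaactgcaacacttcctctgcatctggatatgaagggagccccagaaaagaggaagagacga
Snx6: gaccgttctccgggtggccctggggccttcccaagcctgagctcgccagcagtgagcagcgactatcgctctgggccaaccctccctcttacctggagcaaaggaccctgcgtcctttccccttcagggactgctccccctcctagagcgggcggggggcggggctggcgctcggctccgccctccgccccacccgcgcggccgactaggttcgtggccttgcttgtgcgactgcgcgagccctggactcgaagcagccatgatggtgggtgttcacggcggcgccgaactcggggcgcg
Lpin1: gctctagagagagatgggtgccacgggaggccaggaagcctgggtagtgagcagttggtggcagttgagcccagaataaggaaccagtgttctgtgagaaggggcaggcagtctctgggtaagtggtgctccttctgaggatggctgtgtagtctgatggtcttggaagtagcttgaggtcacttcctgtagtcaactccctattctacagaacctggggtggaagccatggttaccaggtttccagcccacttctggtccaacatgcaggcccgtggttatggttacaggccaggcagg
Pnpla8: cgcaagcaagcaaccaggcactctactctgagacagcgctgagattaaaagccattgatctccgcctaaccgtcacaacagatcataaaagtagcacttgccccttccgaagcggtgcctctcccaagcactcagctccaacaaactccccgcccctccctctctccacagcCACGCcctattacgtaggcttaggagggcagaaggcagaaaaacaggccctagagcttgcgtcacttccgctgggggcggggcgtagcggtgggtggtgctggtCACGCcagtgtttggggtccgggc

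The core was found in 1 place in this Pik3cg promoter, and it is absent from the Snx6 and Lpin1 windows and from a second Pik3cg promoter in the same table. The longer form TNGCGTG, which contains the core, was found in the promoters of 2 measured neighbours, Rnf144a and Pnpla8. Rnf144a encodes a ubiquitin ligase of the RBR type and differed by 0.01 between KO and WT. Of the 40 measured neighbours with a promoter in the table, 19 (47.5%) held the core on either strand and 2 (5%) the longer form. Among the 9887 measured genes with a promoter there, 50.2% held the core and 8.39% the longer form. Of the 12 neighbours whose groups were apart, 6 held the core. These are matches of letters in a window of 300 bases.

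**Figure D2:**
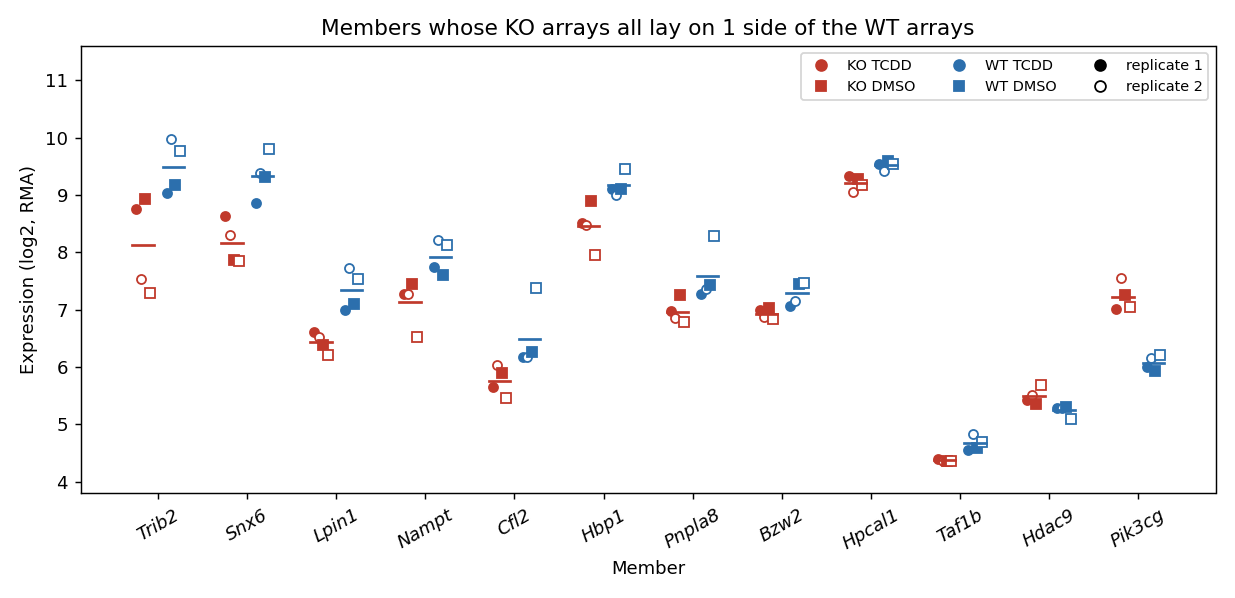
Log2 levels of the 12 neighbours whose 4 KO arrays (red) all lay on 1 side of the 4 WT arrays (blue), ordered from the most negative to the most positive difference. Circles are TCDD arrays and squares DMSO arrays, open symbols are replicate 2, and lines are means; Trib2 has the widest KO spread, and Cfl2 has 1 WT array, DMSO replicate 2, far above the rest.

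The other 9 neighbours whose groups were apart had adjusted p between 0.0821 and 0.181 and did not pass. The difference was widest for Trib2, a pseudokinase that brings proteins to a ubiquitin ligase. Trib2 read 8.76 and 7.54 in KO TCDD, 8.93 and 7.30 in KO DMSO, 9.04 and 9.98 in WT TCDD, and 9.18 and 9.76 in WT DMSO. Its KO arrays split by replicate number, both numbered 2 being well below those numbered 1, and the difference of −1.36 had an SE of 0.40 (limma, BH adjusted p = 0.103). A dimmer Trib2 probe set differed by −0.11 (limma, BH adjusted p = 0.629). Nampt, the enzyme that recycles nicotinamide into NAD, read 7.27 and 7.28 in KO TCDD, 7.45 and 6.52 in KO DMSO, 7.75 and 8.21 in WT TCDD, and 7.60 and 8.13 in WT DMSO. KO DMSO replicate 2 was the lowest array, and the difference was −0.79 (SE 0.22; limma, BH adjusted p = 0.0912). A dimmer Nampt probe set differed by −0.04 (limma, BH adjusted p = 0.887).

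Cfl2 encodes cofilin 2, which severs actin filaments and is best known from muscle. Its brightest probe set read 5.65 and 6.03 in KO TCDD, 5.90 and 5.46 in KO DMSO, 6.18 and 6.17 in WT TCDD, and 6.26 and 7.38 in WT DMSO, a difference of −0.74 that did not pass (SE 0.27; limma, BH adjusted p = 0.172). Only WT DMSO replicate 2 was clearly above the rest. The second Cfl2 probe set read 5.38 and 5.50 in KO TCDD, 5.51 and 5.78 in KO DMSO, 6.37 and 6.97 in WT TCDD, and 6.27 and 7.14 in WT DMSO. On it every WT array stood well above every KO array, and it fell by 1.15 on the log2 scale (SE 0.20; limma, BH adjusted p = 0.0325). Cfl2 and Snx6 are next to each other in the gene order.

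Hbp1, an HMG-box repressor of transcription and of cell cycle entry, read 8.52 and 8.48 in KO TCDD, 8.89 and 7.96 in KO DMSO, 9.11 and 9.00 in WT TCDD, and 9.11 and 9.46 in WT DMSO. The difference was −0.71 (SE 0.19; limma, BH adjusted p = 0.0833). A second Hbp1 probe set also kept KO below WT on every array and differed by −0.89 (limma, BH adjusted p = 0.0735), while the remaining probe set, at 5.55 in KO and 5.53 in WT, differed by 0.03. Pnpla8, a phospholipase A2 of mitochondria and peroxisomes, read 6.97 and 6.86 in KO TCDD, 7.25 and 6.79 in KO DMSO, 7.27 and 7.36 in WT TCDD, and 7.44 and 8.29 in WT DMSO. KO DMSO replicate 1 lay just under the lowest WT array, and the difference of −0.62 did not pass (SE 0.22; limma, BH adjusted p = 0.158).

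Smaller differences without overlap were seen for Bzw2, Hpcal1, Taf1b and Hdac9. Bzw2, a regulator of translation initiation that lies 4 places from Ahr, read 7.00 and 6.87 in KO TCDD, 7.03 and 6.84 in KO DMSO, 7.07 and 7.16 in WT TCDD, and 7.45 and 7.46 in WT DMSO. The difference was −0.35 (SE 0.11; limma, BH adjusted p = 0.119), and the WT TCDD arrays lay near the KO arrays. A dimmer Bzw2 probe set differed by −0.08 (limma, BH adjusted p = 0.729). Hpcal1, a calcium sensor of the hippocalcin family, averaged 9.22 ± 0.12 in KO, against 9.53 ± 0.08 in WT (SD over 4 arrays each; limma, BH adjusted p = 0.0861). Taf1b, a subunit of the selectivity factor of RNA polymerase I, averaged 4.38 ± 0.01 in KO, against 4.67 ± 0.13 in WT (SD over 4 arrays each; limma, BH adjusted p = 0.0821), well under the median probe set level. Hdac9, a class IIa histone deacetylase that lies 3 places from Ahr, was the other neighbour with all KO arrays higher. It read 5.42 and 5.51 in KO TCDD, 5.35 and 5.69 in KO DMSO, 5.29 and 5.29 in WT TCDD, and 5.30 and 5.10 in WT DMSO, a difference of 0.25 at a dim level (limma, BH adjusted p = 0.181).

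The size of the difference had little correlation with the distance from Ahr. Distance was counted in places along the order of protein-coding genes by start in the RefSeq table of GRCm38.p6, and the neighbours ran from 117 places on the lower-numbered side to 58 on the higher-numbered side. In the nearest 14 neighbours, 2 to 17 places away, 1 was called and the groups were apart for 5, with a median absolute difference of 0.29. In the middle 14, 19 to 54 places away, 1 was called and 4 were apart, with a median absolute difference of 0.40. In the farthest 14, 58 to 117 places away, 1 was called and 3 were apart, with a median absolute difference of 0.25. From nearest to farthest, 42.9%, 50% and 28.6% had an unadjusted p under 0.05 (limma), beside 20.5% of all probe sets. These 3 groups differed in brightness, with median levels of 6.71, 6.61 and 8.56, and were not matched for it. Across the 42 genes, distance and absolute difference had a Spearman correlation of 0.05 and a Pearson correlation of 0.07, as a description of genes that share the same 8 arrays. On the lower-numbered side 2 of 25 neighbours were called and 8 were apart, and on the higher-numbered side 1 of 17 was called and 4 were apart. These counts stand beside 2.79% of all probe sets called and 12.3% apart.

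**Figure D3:**
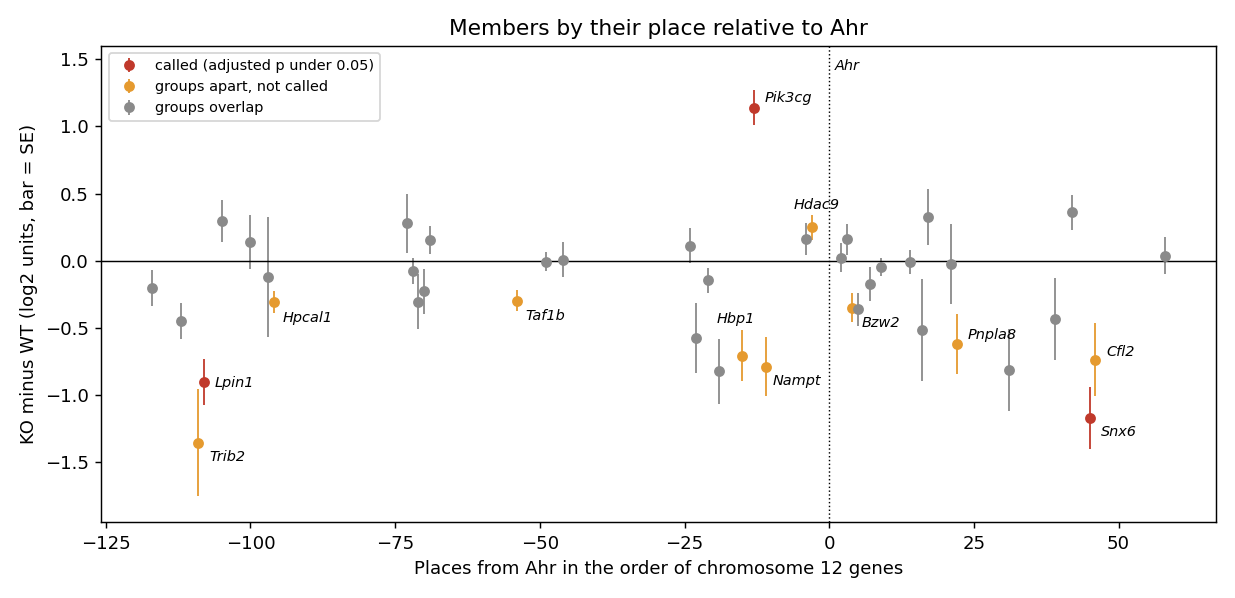
KO minus WT difference of each of the 42 neighbours (points, with SE) against its place relative to Ahr (dotted line) in the gene order of chromosome 12. The 3 called genes are red and lie at −108 (Lpin1), −13 (Pik3cg) and 45 (Snx6). Among the neighbours shown within 9 places of Ahr the widest difference was −0.36 (Ankmy2). The widest of all neighbours, −1.36 (Trib2), lies at −109. Genes outside the list and further probe sets are not shown.

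Among the listed neighbours that were measured, the 5 nearest on each side held 1 call, Pik3cg. Genes outside the list lie among them, of which Sypl, 10 places away on the lower-numbered side, differed by −1.06 without passing (limma, BH adjusted p = 0.0684). Atxn7l1, 8 places away on that side, differed by −0.44 with its groups apart (limma, BH adjusted p = 0.1). Agr3 and Ferd3l, 1 and 5 places away, differed by −0.075 and −0.0775. On the lower-numbered side the 5 nearest listed neighbours were Hdac9, Twist1, Nampt, Pik3cg and Hbp1. Twist1, a basic helix-loop-helix factor of mesenchyme, was dim (4.88 ± 0.23 in KO, against 4.72 ± 0.08 in WT, SD over 4 arrays each; limma, BH adjusted p = 0.493). On the other side they were Agr2, Tspan13, Bzw2, Ankmy2 and Sostdc1. Tspan13, a tetraspanin and the brightest of them, read 9.35 and 9.35 in KO TCDD, 9.52 and 9.37 in KO DMSO, 9.01 and 9.45 in WT TCDD, and 9.07 and 9.43 in WT DMSO. The KO arrays lay within the WT range but for 1, and the difference was 0.16 (limma, BH adjusted p = 0.51). Ankmy2, an ankyrin repeat protein, read 6.31 and 6.71 in KO TCDD, 6.69 and 6.63 in KO DMSO, 6.93 and 7.03 in WT TCDD, and 6.70 and 7.13 in WT DMSO, with KO TCDD replicate 2 just above the lowest WT array (difference −0.36; limma, BH adjusted p = 0.146). A further Ankmy2 probe set had its groups apart and differed by −0.445 (limma, BH adjusted p = 0.0925). The dimmest Ankmy2 probe set differed by 0.01 (limma, BH adjusted p = 0.939). Agr2, a disulfide isomerase of secretory epithelia, and Sostdc1, a secreted antagonist of BMP and WNT signals, were dim in these T cells, with differences of 0.02 and −0.18 (limma, BH adjusted p = 0.937 and 0.484).

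By role, on the brightest probe set of each gene, negative differences made up all 5 of the RNA, DNA and translation genes, 7 of 8 in metabolism and 5 of 6 in membrane traffic, beside 28 of all 42 neighbours. No test was made between roles. Of 8 measured metabolic and mitochondrial genes, 7 differences were negative (median −0.44), 1 fell (Lpin1) and 0 rose. The exception in sign was Egln3, a prolyl hydroxylase of hypoxia-inducible factors (6.79 ± 0.16 in KO, against 6.43 ± 0.24 in WT, SD over 4 arrays each; limma, BH adjusted p = 0.169). Of 6 traffic and cytoskeleton genes, 5 were negative (median −0.55) and 1 fell (Snx6). Bcap29, an export receptor of the endoplasmic reticulum in this group, read 5.62 and 5.96 in KO TCDD, 6.56 and 5.72 in KO DMSO, 6.51 and 6.92 in WT TCDD, and 6.47 and 7.26 in WT DMSO. KO DMSO replicate 1 alone reached the WT range, and Bcap29 did not pass (difference −0.82; limma, BH adjusted p = 0.103).

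Of 7 signalling genes, 4 were negative (median −0.31), 1 rose (Pik3cg by its brightest probe set) and 0 fell. Strn3, a striatin that scaffolds protein phosphatase 2A, read 6.73 and 6.92 in KO TCDD, 7.37 and 6.90 in KO DMSO, 7.06 and 7.87 in WT TCDD, and 7.60 and 8.65 in WT DMSO (difference −0.82; limma, BH adjusted p = 0.174). Of 8 transcription and chromatin genes 4 were negative and 4 positive, and 0 were called (limma, BH; 3 at an unadjusted p under 0.05). All 5 genes of RNA, DNA and translation were negative, between −0.45 (Ddx1, a DEAD-box helicase) and −0.08 (Cpsf3, the endonuclease of mRNA 3′ end processing), with 0 called (limma, BH; 2 at an unadjusted p under 0.05). The 6 folding, shedding and turnover genes ran from −0.23 (Adam17, a sheddase) to 0.14 (Pdia6, a disulfide isomerase) on their brightest probe sets. Dimmer probe sets went further, to −0.54 for the proteasome subunit Psma6 and 0.48 for Pdia6 (limma, BH adjusted p = 0.537 and 0.178). Lamb1 and Sostdc1, the 2 secreted or matrix genes, differed by 0.11 and −0.18. In these last 2 groups 0 genes were called by their brightest probe set, and 0 had an unadjusted p under 0.05 (limma, BH). These groups are small, and 2.79% of all probe sets were called.

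The other measured genes of the same stretch, which the list of neighbours does not hold, had a share of calls near that of all genes and were negative about as often as the neighbours. There were 47 between the first and the last neighbour, of which 1 was called (2.13%) and 7 were apart (14.9%), with a median difference of −0.07 and a median absolute difference of 0.11. Of these differences 31 (66%) were negative, beside 66.7% of the neighbours. Of the 25 at or above the median probe set level, 24% were apart and 40% had an unadjusted p under 0.05, beside 17.1% and 30.9% of all genes outside the list at that level. The called gene was Id2, an inhibitor of helix-loop-helix factors, named after its value was seen (10.48 ± 0.32 in KO, against 9.40 ± 0.40 in WT, SD over 4 arrays each; limma, BH adjusted p = 0.0428). Of 294 genes elsewhere on chromosome 12, 2.38% were called and 11.9% were apart. Of 11983 genes of other chromosomes, 3.25% were called and 12.9% were apart. Over the listed neighbours and the other genes of the stretch, 4 of 89 were called (4.49%) and 19 were apart (21.3%).

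**Figure D4:**
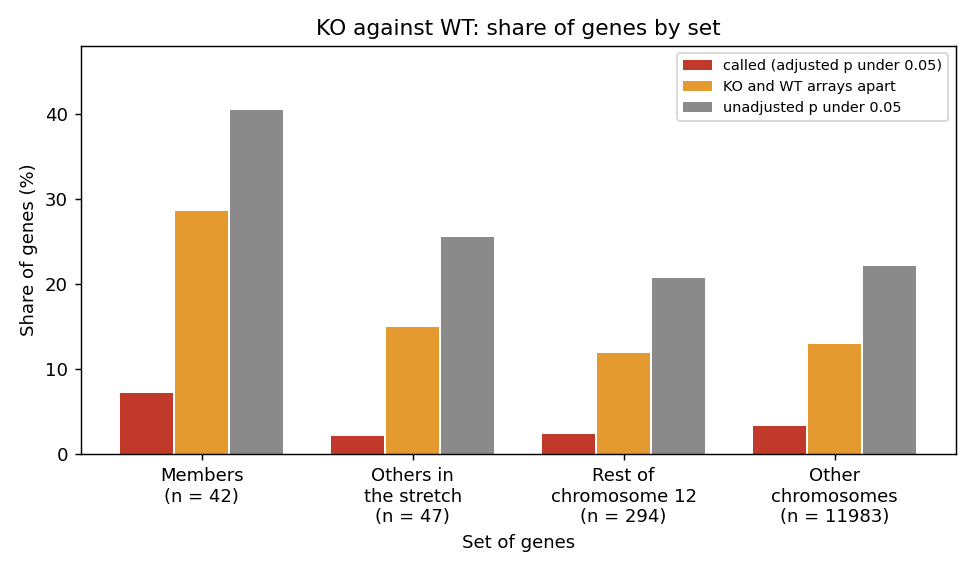
Share of genes (%) that were called, whose KO and WT arrays were apart, or that had an unadjusted p under 0.05, in the 42 listed neighbours, the 47 other measured genes of the same stretch, the 294 genes elsewhere on chromosome 12 and the 11983 genes of other chromosomes. The neighbours' bars (7.14%, 28.6% and 40.5%) are the tallest of each colour, and those of the other genes of the stretch are 2.13%, 14.9% and 25.5%.

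Probe sets of 1 gene often differed in what they showed. Of the 42 neighbours, 26 had more than 1 probe set. In 16 of these all probe sets had the same sign (12 negative, 4 positive), and in 10 the signs were mixed. Among the 44 further probe sets, 2 were called, both lower (4.55%): those of Cfl2 and Pik3cg described above, beside 2.79% of all probe sets called and 1.2% called lower. The KO and WT arrays were apart on 8 of them (18.2%), beside 12.3% of all probe sets. One of these belonged to Cbll1, a ubiquitin ligase also found with the RNA methylation machinery. It read 4.78 ± 0.13 in KO, against 5.63 ± 0.47 in WT (SD over 4 arrays each; limma, BH adjusted p = 0.0703), whereas the brighter Cbll1 probe set differed by −0.14 (limma, BH adjusted p = 0.435). All 7 Ywhaq probe sets, for a 14-3-3 protein abundant in T cells, were positive, between 0.10 and 0.32, and none was called. No strain sequence under the probes was analysed here, and its part in these differences was not tested.

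**Figure D5:**
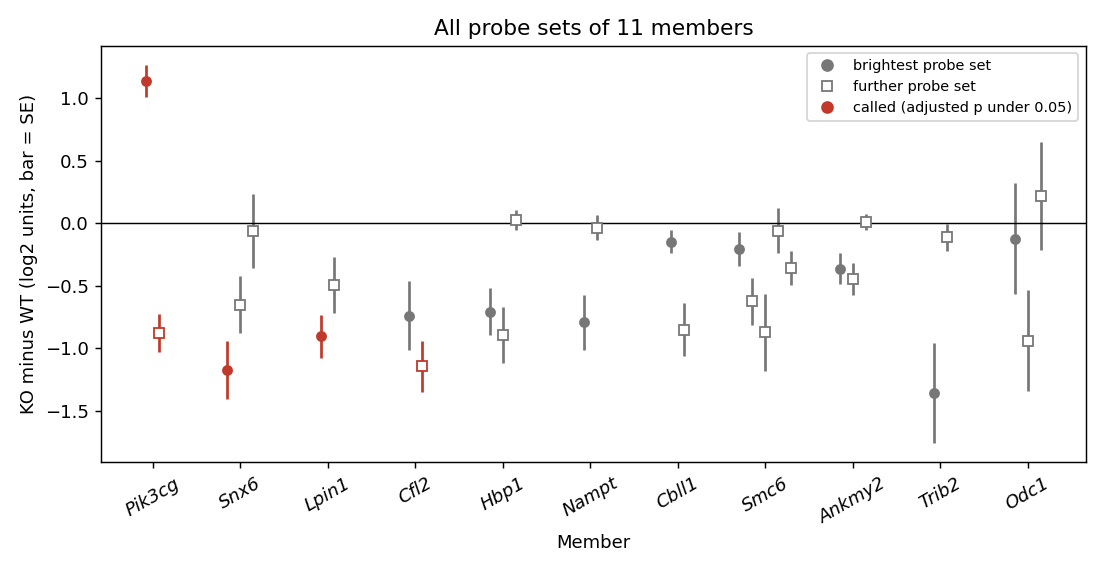
KO minus WT difference (log2 units, with SE) of every probe set of 11 neighbours; filled circles are the brightest probe set, open squares the others, and red marks those called. The 2 Pik3cg probe sets lie at 1.14 and −0.88, and the second Cfl2 probe set at −1.15.

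Most neighbours kept the sign of their difference under both treatments, and many neighbours read higher on the WT arrays numbered 2. Within the TCDD arrays the median difference of the 42 was −0.21 and within the DMSO arrays −0.13; 23 neighbours were lower and 10 higher in KO under both treatments, and 9 changed sign. In WT, 21 of the 42 read higher on replicate 2 than on replicate 1 under both treatments, and 9 lower; in KO the counts were 3 higher and 16 lower. Of the 10 neighbours apart and lower in KO, 7 were among those with WT replicate 2 above replicate 1 under both treatments. These sign and replicate counts were taken over the neighbours only. Without the same counts over all genes, they do not show a trait particular to the neighbours. Without both WT arrays numbered 2, the median difference of the neighbours was −0.18, with 29 of 42 negative. In that fit 0 neighbours were called (limma, BH), as against 0.124% of all probe sets. An unadjusted p under 0.05 was reached by 16 of the 42 neighbours, beside 3203 of 22626 probe sets (limma). The actin 3′ to 5′ log2 difference, a measure of RNA integrity, ran from 3.48 to 3.82 on the KO arrays and was 4.56, 3.30, 3.70 and 2.90 on WT TCDD replicates 1 and 2 and WT DMSO replicates 1 and 2. The same difference for Gapdh ran from 4.77 to 5.2 on the KO arrays. On the WT arrays, in the same order, it was 5.34, 4.35, 5.06 and 3.71. For both controls the WT arrays numbered 2 lay below all KO arrays. The part of RNA integrity in these results was not tested.

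The spread of the WT arrays was set beside the size of the KO minus WT difference. The range over the 4 WT arrays exceeded that size in 31 of the 42 neighbours, but the WT SD exceeded it in only 18. A range over 4 arrays is wider than their SD, and neither count was taken over all genes. Odc1, the rate-limiting enzyme of polyamine synthesis, read 10.19 and 9.85 in KO TCDD, 10.24 and 9.61 in KO DMSO, 10.96 and 9.82 in WT TCDD, and 10.83 and 8.77 in WT DMSO. Its WT arrays numbered 1 were the highest of all 8 and its WT DMSO replicate 2 the lowest, so the difference of −0.12 had an SE of 0.45 (limma, BH adjusted p = 0.914). Without both WT arrays numbered 2 it was −0.92 (limma, BH adjusted p = 0.131), and a second Odc1 probe set differed by −0.94 over all 8 arrays (limma, BH adjusted p = 0.24). The remaining Odc1 probe set went the opposite way, by 0.22 over all 8 arrays (limma, BH adjusted p = 0.831). Ifrd1, a transcriptional coregulator, and Dnajb9, an endoplasmic reticulum co-chaperone, also read higher on replicate 1 than on replicate 2 in WT under both treatments. They differed by −0.52 and −0.02 between KO and WT (limma, BH adjusted p = 0.501 and 0.978). Without both WT arrays numbered 2, Dnajb9 differed by −0.53 (limma, BH adjusted p = 0.242).

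After 24 h of TCDD, none of the 42 neighbours was called in either genotype by limma's fit of 4 group means (2 arrays each). In WT, TCDD minus DMSO differences ran from −0.66 to 0.59 with a median of 0.03, and 0 neighbours were called, as were 0% of all probe sets (limma, BH; 1 neighbour had an unadjusted p under 0.05, or 2.38%, beside 2.79% of all probe sets). The smallest unadjusted p in WT belonged to Bzw2 (−0.34; limma, BH adjusted p = 0.997) and then to Pnpla8 (−0.55; limma, BH adjusted p = 0.997). In KO the differences ran from −0.35 to 0.61, again with 0 called (limma, BH; 1 at an unadjusted p under 0.05, beside 1.69% of all probe sets). The smallest p values there were those of Snx6, at 0.61 (limma, BH adjusted p = 1 after rounding), and Agr2, at −0.24. The difference of the TCDD effects between KO and WT was 1.05 for Snx6 and −0.46 for Agr2, and neither passed (limma, BH adjusted p = 0.998 for both; 0 of 42 called, and 2, or 4.76%, at an unadjusted p under 0.05, beside 2.78% of all probe sets). With 2 arrays per group, small responses could be missed.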

How the data were processed

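The deposited values are log2 expression values, produced by the authors with RMA (affy) per the submitters' processing notes, with no versions given in the sources used here. The labels' protocols name TRIzol for RNA, an Ambion kit for amplification and the Affymetrix procedure for hybridisation. Of 22690 probe sets, 64 controls were left out and 22626 were tested. Of these 20380 had 1 gene symbol in the array annotation, 691 several and 1555 none, and 20351 were matched to the RefSeq table of GRCm38.p6, used for names and gene order. No build is stated for the array.

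KO was compared with WT as 4 against 4 arrays with limma (version 3.58.1, R 4.3.3; lmFit and eBayes), pooling treatments as the series' design text does, and TCDD with DMSO within 4 group means. Benjamini-Hochberg adjustment ran over the 22626 probe sets, with 0.05 as the threshold. Single levels had an exact permutation test over 70 arrangements. The fit was tested on simulated data. The number of arrays limits the precision. Each array held pooled animals, so p-values measure the spread between pools. For KO against WT, that spread also held any difference between TCDD and DMSO arrays. This fit and the permutation test took the 4 arrays of a genotype as independent. Deviations of same-numbered arrays correlated at 0.63 between the WT groups, which those p-values do not allow for. No pair of arrays shared more than 2.85% of its values.

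The neighbours, the marker and role lists and the rules were chosen with earlier results of these data known. Described array by array were called neighbours, the 5 nearest measured on each side, up to 6 per direction that were not called but whose groups did not overlap, and for TCDD the 2 with the smallest p. Id2, Bcap29, Strn3, Odc1 and the further probe sets and genes given with values beyond these were chosen after their values were seen.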

Additional observations from a re-analysis of the deposited data

Results flagged for a closer look

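In 84 groups of 4 arrays (KO and WT for each of the 42 neighbours), 5 single arrays lay farther from the other 3 than Dixon's critical value for 4 samples allows; chance gives about 1 such array in 20 groups. On WT DMSO replicate 2, Cfl2 read 7.38 where the other WT arrays read 6.17 to 6.26, Pnpla8 read 8.29 where they read 7.27 to 7.44, and Hdac9 read 5.10 where they read 5.29 to 5.30. Tspan13 read 9.52 on KO DMSO replicate 1, with the other KO arrays at 9.35 to 9.37. Taf1b read 4.39 on KO TCDD replicate 1, where the other 3 KO arrays all read 4.37.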

How the results depend on the processing

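The median difference of the neighbours was negative in every alternative tried, from −0.27 with dim probe sets left out to −0.08 without WT TCDD replicate 1. The counts moved more. For neighbours called lower (2) and higher (1), they were 0 and 0 from the DMSO arrays alone, from the TCDD arrays alone and without both WT arrays numbered 2 (limma, BH; 5, 8 and 16 neighbours had an unadjusted p under 0.05), 6 and 1 with array weights and at an adjusted p under 0.10, 1 and 1 with 4 group means, 0 and 1 at an adjusted p under 0.01, and 3 and 0 when the probe sets of a gene were averaged (Cbll1, Cfl2 and Lpin1). Of the 22626 probe sets, 1545 had an unadjusted p under 0.05 from the DMSO arrays alone and 2832 from the TCDD arrays alone (limma). That number was 3203 without both WT arrays numbered 2. Leaving out 1 array at a time gave 0 to 2 lower and 1 higher, and Pik3cg was called each time. The genes called lower changed. They were Bcap29 and Hbp1 without KO DMSO replicate 1, Lpin1 and Snx6 without WT TCDD replicate 1, and Lpin1 alone without WT DMSO replicate 1. Over all probe sets the count of 631 was 0, 0 and 28 in the first 3 of these fits, 1604 with array weights, 1741 at 0.10, 161 with 4 group means, 56 at 0.01, 985 after another quantile normalization, and 109 to 667 with 1 array left out. Neighbours called for TCDD in WT, in KO or for the difference stayed at 0 by limma (BH) in every alternative run. The replicate block, with which the calls were 1 higher and 2 lower (Pik3cg, Snx6 and Lpin1), left 801 probe sets called; deviations of same-numbered arrays correlated at 0.63 between the WT groups and 0.12 between the KO groups, but from −0.29 to 0.22 between KO and WT groups, so the numbers were not taken to pair KO with WT arrays. The cause of these changes was not tested.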
